A study of Mus musculus with 6 samples.

Results

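The Cyp4 family of cytochrome P450 enzymes was examined in livers of insulin-resistant mice that had received insulin or vehicle. Its 10 members considered here were Cyp4a10, Cyp4a14, Cyp4a12a, Cyp4a12b, Cyp4a31, Cyp4a32, Cyp4f13, Cyp4f14, Cyp4f15 and Cyp4v3, chosen by gene name from the 54532 genes of the count table, and all 10 passed the filter on low counts. The 6 libraries, 1 per mouse, came from bulk liver of male C57BL/6J mice, all fed a high-fat diet for 6 weeks from 8 weeks of age, which made them insulin resistant (IR), and all fasted for 16 h. Of these, 3 mice were injected intraperitoneally with insulin at 0.75 units per kg (IR insulin) and 3 with bovine serum albumin, the vehicle (IR vehicle), and livers were collected 6 h later. Diet and fasting were shared by both groups, so the comparison addressed the response to insulin alone in the IR state.

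Cyp4 enzymes sit in the endoplasmic reticulum and hydroxylate fatty acids at the last, or omega, carbon of the chain, using electrons passed on by cytochrome P450 reductase. The product can be oxidized further by alcohol and aldehyde dehydrogenases to a dicarboxylic acid, which peroxisomes then shorten, a route that handles surplus fatty acid when mitochondrial oxidation is loaded. In liver, genes of the Cyp4a subfamily are classic targets of PPARα, the nuclear receptor that senses fatty acids during fasting. Cyp4f enzymes also inactivate leukotrienes and hydroxylate the side chains of lipid-soluble vitamins.

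No Cyp4 transcript passed the test of a difference between insulin-treated and vehicle-treated IR mice, given the spread between libraries. The point estimate was below 0 for 10 of 10 members, with a median log2 fold change (insulin over vehicle) of −0.39 and a range from −0.74 for Cyp4a31 to −0.11 for Cyp4a12a. Over all 13377 genes tested, 6876 (51.4%) had a value below 0 and the median was −0.02. By the study's criteria, an unadjusted p below 0.05 together with a log2 fold change of 0.35 or more in either direction, 0 of 10 members were called by edgeR, against 2.86% of all genes (1.86% lower in insulin), and DESeq2, the study's tool, called 1, Cyp4v3. At an adjusted p below 0.05, 0 members and 0 genes in all passed edgeR's quasi-likelihood test, while 383 genes had an unadjusted p below 0.05; DESeq2 called 0 genes at an adjusted p below 0.05 and 507 by the study's criteria. The shared direction rested in part on single libraries: without vehicle replicate 2, 6 of 10 members were below 0 and their median was −0.10, and without vehicle replicate 3, 7 of 10 were below 0.

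**Figure D1:**
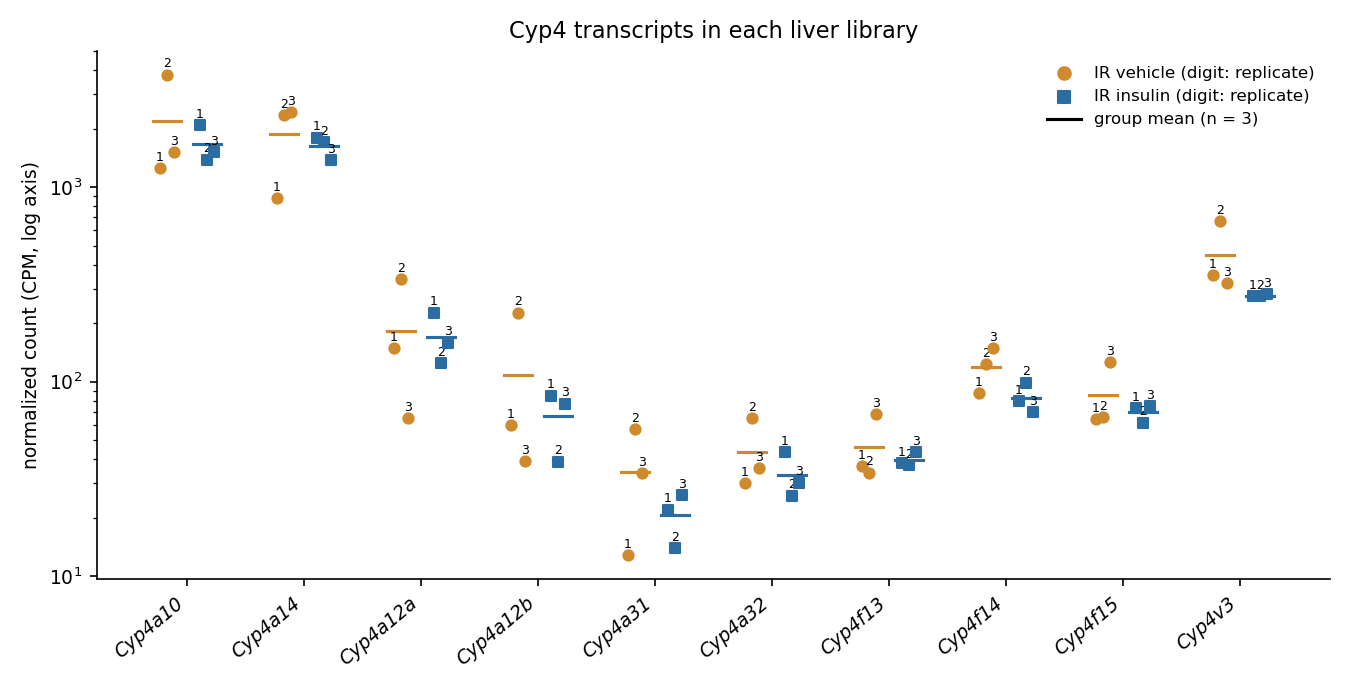
Normalized counts (CPM, log axis) of the 10 Cyp4 transcripts in each of the 6 liver libraries, with circles for IR vehicle, squares for IR insulin, the replicate number above each symbol and a line at each group mean (n = 3). Vehicle replicate 2 or vehicle replicate 3 holds the highest value of every member, and the Cyp4v3 groups alone do not overlap.

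Library totals ran from 18449986 to 21827619 counts. Vehicle libraries were less alike than insulin libraries: Pearson's r, taken across genes on log2 CPM, was 0.878 to 0.948 between vehicle pairs and 0.980 to 0.985 between insulin pairs. Vehicle replicate 1 was as close to the insulin libraries, at 0.982 to 0.988, as these were to each other. Against the insulin libraries, vehicle replicate 2 was at 0.906 to 0.912 and vehicle replicate 3 at 0.951 to 0.954. Vehicle replicate 2 stood apart, with 16470 genes detected where the others had 18389 to 18874, and with a slope of −1.13 log2 units per 10 percentage points of transcript GC content where the others lay between −0.064 and 0.19. All 7 hepatocyte markers were present in every library, at a summed 69221 to 167256 CPM in vehicle and 57996 to 73074 CPM in insulin, the highest in vehicle replicate 2. Summed markers of Kupffer, B, endothelial, stellate, bile duct and erythroid cells and of neutrophils overlapped between the groups, although 2 of 3 erythroid genes and 1 of the 2 tested B cell genes were called lower in insulin. In bulk liver, fewer cells of a type and less RNA per cell cannot be told apart.

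Cyp4a10 and Cyp4a14, the Cyp4a members best known as PPARα targets, were by far the most abundant per length of transcript. Cyp4a10 averaged 912 CPM per kilobase over the 6 libraries and Cyp4a14 704, the former being higher in 4 of 6 libraries. Both exceeded Cyp4v3, the next in order at 95.1 CPM per kilobase, in 6 of 6 libraries. Cyp4a10 (ENSMUSG00000066072) lies at chr4:115518264-115533649 on the plus strand of mouse build GRCm38 (mm10), and Cyp4a14 (ENSMUSG00000028715) at chr4:115486200-115496142 on the minus strand.

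In CPM, the count per library scaled to a common library size, Cyp4a10 was at 1257, 3787 and 1512 in vehicle replicates 1, 2 and 3 and 2082, 1384 and 1515 in insulin replicates 1, 2 and 3. Vehicle replicate 2 was above every other library, and the other 5 libraries interleaved between the groups. Group means were 2185 ± 1393 CPM in vehicle and 1661 ± 371 CPM in insulin (SD, n = 3). The log2 fold change was −0.40 ± 0.45 (SE), with a 95% interval from −1.43 to 0.64 (edgeR adjusted p = 0.855), so that anything from a fold of 0.370 to one of 1.56 was compatible with these libraries. Without vehicle replicate 2 the estimate was 0.27.

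For Cyp4a14, vehicle replicates 1 to 3 gave 875, 2352 and 2435 CPM and insulin replicates 1 to 3 gave 1801, 1708 and 1376 CPM. Here vehicle replicate 1 was the low library, and all 3 insulin values fell inside the vehicle range. The means were 1887 ± 878 CPM in vehicle and 1629 ± 224 CPM in insulin, a log2 fold change of −0.21 ± 0.40 with an interval from −1.15 to 0.72 (edgeR adjusted p = 0.896). Leaving out vehicle replicate 3 moved it to 0.013.

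Because both genes carry most of the family's reads, their ratio showed how differently they varied between libraries. Cyp4a14 reads per Cyp4a10 read, both normalized, were 0.696, 0.621 and 1.61 in the vehicle libraries and 0.865, 1.23 and 0.908 in the insulin libraries. The insulin ratios lay inside the vehicle range, and vehicle replicate 3 had the highest ratio of the 6.

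Cyp4a31 and Cyp4a32 are close copies of Cyp4a10 next to it on chromosome 4, at chr4:115563649-115579015 and chr4:115600969-115621602, both on the plus strand. Their coding sequences matched that of Cyp4a10 at 96.6% and 97.2% of aligned positions, with 52 and 43 substitutions in 1527 bases, and matched each other at 96.0%. Of all stretches of 100 bases in the annotated transcripts, 12.7% in Cyp4a10, 8.22% in Cyp4a31 and 20.1% in Cyp4a32 occurred unchanged in another gene, so reads that fall within these stretches cannot be placed. The read length was not given, and the shares were 30.5%, 21.8% and 46.8% for stretches of 50 bases and 4.34%, 4.19% and 7.97% for stretches of 150 bases. The stretch printed here is the 60-base coding window within 1 exon where the 3 genes differ most, at 9 positions, printed with the differing bases in capitals (GRCm38, plus strand, from chr4:115519640-115519699, chr4:115565020-115565079 and chr4:115602270-115602329).
Cyp4a10: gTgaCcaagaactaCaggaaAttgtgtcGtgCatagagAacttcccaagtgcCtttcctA
Cyp4a31: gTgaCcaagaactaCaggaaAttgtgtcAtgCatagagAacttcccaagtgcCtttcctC
Cyp4a32: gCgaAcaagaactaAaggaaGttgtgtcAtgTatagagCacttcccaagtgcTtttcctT

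Reads assigned to Cyp4a31 gave 12.8, 56.8 and 33.9 CPM in vehicle replicates 1 to 3 and 22.0, 13.9 and 26.1 CPM in insulin replicates 1 to 3. The vehicle values spanned a 4.42-fold range that enclosed all 3 insulin values. Its log2 fold change, −0.74 ± 0.50 (interval −1.90 to 0.42, edgeR adjusted p = 0.852), was the lowest of the family and became −1.13 without vehicle replicate 1 and −0.18 without vehicle replicate 2.

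Cyp4a32 stood at 30.0, 64.8 and 36.0 CPM in vehicle and at 43.4, 25.9 and 30.2 CPM in insulin, again with vehicle replicate 2 highest and the groups overlapping. The difference was −0.39 ± 0.35 on the log2 scale (interval −1.19 to 0.41, edgeR adjusted p = 0.852) and 0.014 without vehicle replicate 2. With the reads of Cyp4a10, Cyp4a31 and Cyp4a32 added together, which is unaffected by how reads were split among the 3 copies but not by reads that the counting may have dropped for matching several, the sums were 1300, 3908 and 1582 CPM in vehicle and 2148, 1424 and 1571 CPM in insulin. That sum gave −0.40 ± 0.45 (edgeR adjusted p = 0.856), close to Cyp4a10 alone, and 0.25 without vehicle replicate 2.

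Cyp4a12a and Cyp4a12b are male-biased in mouse liver, where growth hormone pulses sustain them, and Cyp4a12a hydroxylates arachidonic acid at its omega end. They occupy chr4:115299046-115332815 and chr4:115411624-115439034 on the plus strand, and Cyp4a12b overlaps Gm12837 on the opposite strand. Their coding sequences were 98.5% identical, differing at 23 of 1524 bases, and the longest identical run was 342 bases. Of 100-base stretches, 35.8% in Cyp4a12a and 36.2% in Cyp4a12b were shared between them, 48.9% and 49.4% at 50 bases and 25.6% and 25.9% at 150 bases. The coding window of 60 bases within 1 exon where they differ most holds 4 differences, in capitals, at chr4:115326628-115326687 and chr4:115432881-115432940 (GRCm38, plus strand), and shows how little sequence tells the copies apart.
Cyp4a12a: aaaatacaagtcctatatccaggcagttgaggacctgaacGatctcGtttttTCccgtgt
Cyp4a12b: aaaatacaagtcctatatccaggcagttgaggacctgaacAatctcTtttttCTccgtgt

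The Cyp4a12a transcript measured 149, 336 and 64.7 CPM in vehicle replicates 1 to 3 and 226, 125 and 159 CPM in insulin replicates 1 to 3. Vehicle replicates 2 and 3 were the highest and the lowest of the 6 libraries, 5.20-fold apart, and enclosed every insulin value. Mean levels were 183 ± 139 CPM in vehicle and 170 ± 51.7 CPM in insulin (SD, n = 3). The log2 fold change of −0.11 ± 0.54 had an interval from −1.36 to 1.15 (edgeR adjusted p = 0.959) and was 0.67 without vehicle replicate 2.

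Cyp4a12b followed the same order in vehicle, with 59.7, 226 and 39.0 CPM, against 84.9, 38.7 and 77.0 CPM in insulin. Its vehicle SD of 103 CPM nearly equalled its vehicle mean of 108 CPM, and the insulin mean was 66.9 ± 24.7 CPM. The difference was −0.70 ± 0.64 (interval −2.17 to 0.78, edgeR adjusted p = 0.852), turning to 0.44 without vehicle replicate 2.

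Summed over both copies, Cyp4a12 reads came to 208, 563 and 104 CPM in vehicle and 311, 164 and 236 CPM in insulin, a log2 fold change of −0.30 ± 0.57 (edgeR adjusted p = 0.897) that was 0.60 without vehicle replicate 2. The Cyp4a12b level per Cyp4a12a level was 0.401, 0.673 and 0.603 in vehicle and 0.375, 0.311 and 0.486 in insulin. These ratios overlapped between the groups.

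Cyp4f13, Cyp4f14 and Cyp4f15 form a cluster on chromosome 17, at chr17:32924688-32947402 (minus strand), chr17:32905070-32917342 (minus strand) and chr17:32685627-32703352 (plus strand). Their coding sequences were 74.2% to 80.0% identical, and no 100-base stretch of theirs occurred in another gene, so their counts are less open to misplaced reads than those of the Cyp4a copies. Cyp4f14 is an omega-hydroxylase of leukotriene B4 and fatty acids, and was the Cyp4f member with the highest level per kilobase, 45.6 CPM, against 35.8 for Cyp4f15 and 24.5 for Cyp4f13.

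Cyp4f14 measured 87.6, 123 and 148 CPM in vehicle replicates 1 to 3 and 79.5, 98.8 and 70.0 CPM in insulin replicates 1 to 3. A single pair crossed, insulin replicate 2 lying above vehicle replicate 1, and the remaining insulin values lay below all vehicle values. The means were 120 ± 30.6 CPM in vehicle and 82.8 ± 14.7 CPM in insulin, a fold of 0.692 with an interval from 0.450 to 1.06. On the log2 scale this was −0.53 ± 0.27 (edgeR adjusted p = 0.852). Cyp4f14 was the member least tied to vehicle replicate 2, at −0.51 without it. After an offset for GC content it met the study's criteria at −0.73 ± 0.28 (edgeR adjusted p = 0.932), where 2.83% of all genes were called lower. It did so too with a replicate block added to that offset, at −0.70 (edgeR adjusted p = 0.988, 1.51% of all genes called lower), and without vehicle replicate 1, at −0.71.

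Cyp4f13 gave 36.9, 34.1 and 68.0 CPM in vehicle and 38, 37.3 and 43.3 CPM in insulin. Cyp4f15 gave 64.3, 65.6 and 126 CPM in vehicle and 72.8, 61.6 and 75 CPM in insulin. In both, vehicle replicate 3 alone was high and the other 5 libraries lay close together. The log2 fold changes were −0.23 ± 0.30 for Cyp4f13 (edgeR adjusted p = 0.865) and −0.29 ± 0.31 for Cyp4f15 (edgeR adjusted p = 0.854). Without vehicle replicate 3 they were 0.16 and 0.10.

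Cyp4v3, the mouse counterpart of the human fatty acid hydroxylase gene mutated in Bietti crystalline dystrophy of the retina and cornea, lies alone at chr8:45304944-45333216 (minus strand) and overlaps Gm45753 on the same strand, with which 5.77% of its 100-base stretches were shared. Its level was 352, 668 and 321 CPM in vehicle replicates 1 to 3 and 275, 276 and 282 CPM in insulin replicates 1 to 3. Every insulin library was below every vehicle library, which held for 1 of 10 members and, in that direction, for 6.04% of all genes. The insulin libraries were nearly equal, 277 ± 3.79 CPM, whereas the vehicle mean was 447 ± 192 CPM.

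The fold of Cyp4v3 was 0.621 (interval 0.372 to 1.04), or −0.69 ± 0.32 on the log2 scale (edgeR adjusted p = 0.852). An exact permutation test of 3 against 3 cannot give a two-sided p below 0.1. The call depended on the fit and on the library left out. By DESeq2 it met the study's criteria at −0.70 (DESeq2 adjusted p = 0.911), with 2.68% of all genes called lower. It also met the study's criteria without vehicle replicate 1, at −0.83 (edgeR adjusted p = 0.506), and without vehicle replicate 3, at −0.88 (edgeR adjusted p = 0.527), where 4.86% of all genes were called lower. Without vehicle replicate 2 it was at −0.28 (edgeR adjusted p = 0.891) and did not meet them.

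**Figure D2:**
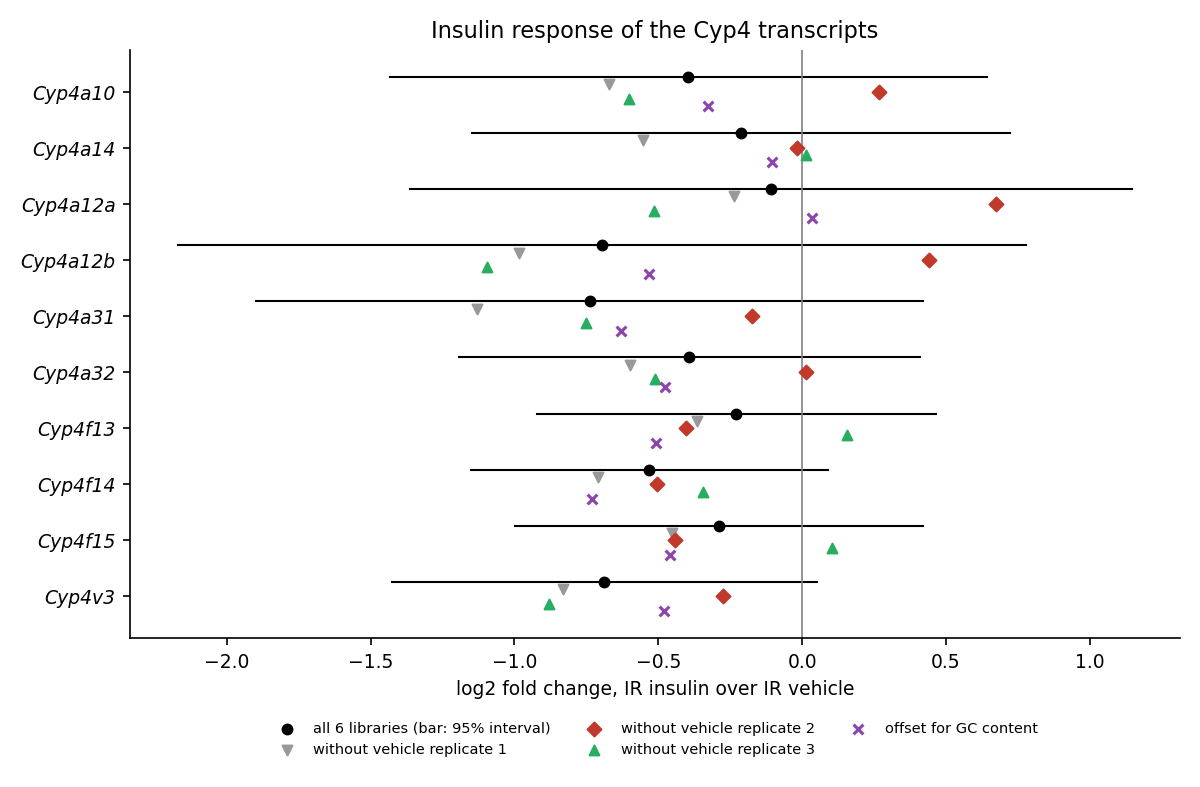
Log2 fold change of each Cyp4 transcript, IR insulin over IR vehicle, from all 6 libraries (black circles, bars for the 95% interval), without each vehicle library in turn, and with an offset for GC content. All 10 intervals include 0, and without vehicle replicate 2 the estimates of Cyp4a10, Cyp4a12a, Cyp4a12b and Cyp4a32 lie above 0.

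Without vehicle replicate 1, 3 of 10 members met the study's criteria as lower in insulin: Cyp4a31, Cyp4f14 and Cyp4v3. In the same fit 5.33% of all genes were called lower, and 0 genes passed at an adjusted p below 0.05. Without any 1 of the insulin libraries, 0 members were called.

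The spread between libraries was larger in vehicle than in insulin for 10 of 10 members. With 1 library per mouse, variation between mice and between libraries cannot be told apart. The median SD of log2 CPM over members was 0.71 in vehicle and 0.28 in insulin. The same held across the transcriptome, where the vehicle SD was the larger for 87.4% of 10660 genes with a mean of at least 50 normalized counts, with medians of 0.48 and 0.16. The highest of the 6 values was in vehicle replicate 2 for 6 members, 5 of the Cyp4a genes and Cyp4v3, and in vehicle replicate 3 for the other 4, Cyp4a14 and the 3 Cyp4f genes. Lowest values were scattered, with 3 in vehicle replicate 1, 3 in insulin replicate 2 and 1 in each other library.

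Levels per kilobase did not fall into a firm order below Cyp4v3. Cyp4a12a averaged 72.9 CPM per kilobase and was below Cyp4v3 in 5 of 6 libraries. Cyp4a12b, at 36.6, was above Cyp4f15 in only 2 of 6 libraries, and Cyp4a32, at 25.1, was above Cyp4f13 in 2 of 6, so these neighbours were not separated. The annotated Cyp4a32 transcript holds 1530 bases, of which 1527 are coding, so it is nearly without untranslated ends. How that shifts its level per kilobase against genes annotated with such ends was not tested. Cyp4a31 was the lowest, at 11 CPM per kilobase.

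Together the 10 members took 0.300%, 0.639% and 0.464% of all counts in vehicle replicates 1 to 3 and 0.493%, 0.399% and 0.399% in insulin replicates 1 to 3. The insulin shares lay within the vehicle range, which was set by vehicle replicates 1 and 2. Within these reads Cyp4a10 made up 31.6% to 49.1%, Cyp4a14 29.9% to 50.9% and Cyp4v3 5.81% to 12.0%.

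**Figure D3:**
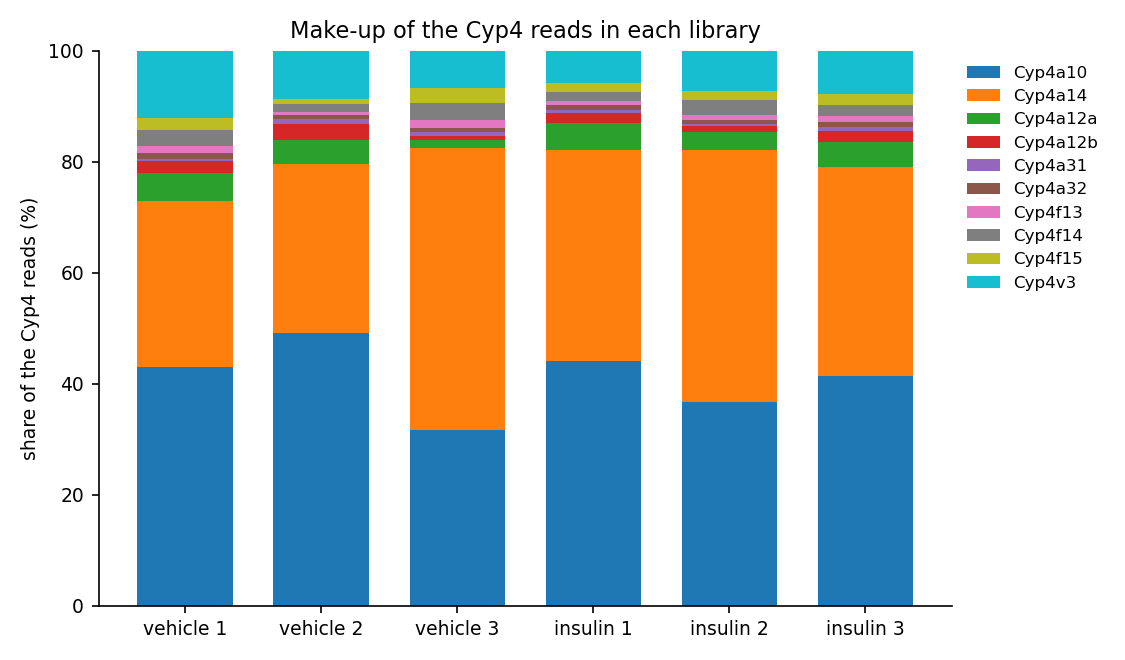
Share of each Cyp4 gene (%) among the reads assigned to the 10 members, one stacked bar per library. Cyp4a10 and Cyp4a14 fill most of every bar, and Cyp4a14 takes its largest share, 50.9%, in vehicle replicate 3.

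The high values in vehicle replicate 2 were set against its GC content trend. Relative to the median of the other 5 libraries, vehicle replicate 2 was higher by 1.92 log2 units for Cyp4a12b, 1.36 for Cyp4a31, 1.32 for Cyp4a10, 1.24 for Cyp4v3, 1.18 for Cyp4a12a and 1.10 for Cyp4a32. The loess curve over all genes stood at 0.43 or less at the GC content of each of these. Members lay above the curve by 0.14 log2 units for Cyp4a14 up to 1.69 for Cyp4a12b. The share of all genes that lay above it was not counted. The Cyp4f transcripts, with 52.5% to 54.9% GC, lay at −0.16 for Cyp4f13, −0.15 for Cyp4f15 and 0.49 for Cyp4f14, where the curve was between −0.81 and −0.48. The 3 erythroid markers, all present in every library, were in sum also highest in this library. They stood at 1181 CPM against 292 to 589 CPM in the other 5, and pericentral hepatocyte markers at 18637 against 10283 to 12758 CPM. Summed markers of all hepatocytes (167256 against 57996 to 104717 CPM) and of stellate cells (221 against 116 to 192 CPM) were also highest there. So were those of B cells (10.9 against 1.25 to 3.51 CPM) and neutrophils (70.8 against 3.62 to 60.1 CPM). Of these last sets, 2 of 4 genes each had reads in every library. Bile duct, endothelial, Kupffer and periportal markers were highest elsewhere. The part of these markers in the Cyp4 values was not tested.

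**Figure D4:**
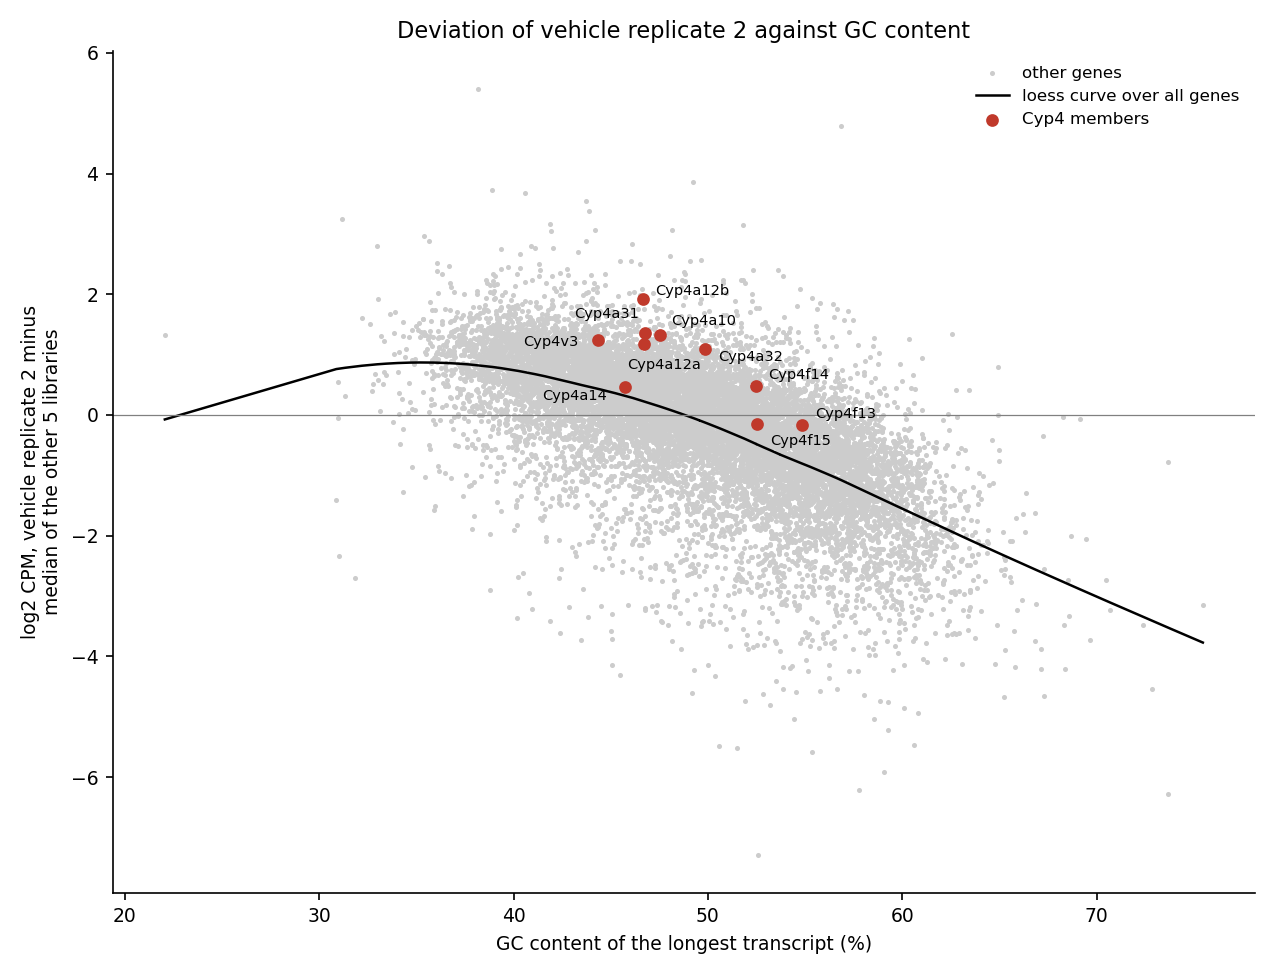
Log2 CPM in vehicle replicate 2 minus the median over the other 5 libraries, against GC content (%) of the longest transcript, for all tested genes with a GC value (grey), the Cyp4 members (red) and a loess curve over all genes. The curve falls with GC content. All 10 members lie above it, and the share of all genes above it was not counted.

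Vehicle replicate 3 deviated in another way. It was higher than the median of the other libraries by 0.94 log2 units for Cyp4f15, 0.86 for Cyp4f13 and 0.76 for Cyp4f14, and its values for Cyp4a12a and Cyp4a12b were at −1.29 and −0.98. Periportal hepatocyte markers reached 6142 CPM in this library, where the range over the insulin libraries was 1573 to 2970 CPM, and neutrophil markers, 2 of 4 of which had reads in every library, were lowest, at 3.62 CPM against 26.6 to 70.8 CPM elsewhere. The part of these in the Cyp4f values was not tested. In vehicle replicate 1, Cyp4a14 and Cyp4a31 were low, at −1.04 and −1.02.

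Other genes of the Cyp4 family were few in this tissue. Of 17 further Cyp4 entries in the table, 10 had no reads in any library, 3 had too few for a test, and 4 were tested: Cyp4b1, Cyp4f16, Cyp4f17 and Cyp4f18. None of the 4 was called, with log2 fold changes of −0.08 ± 0.44 for Cyp4b1, −0.34 ± 0.44 for Cyp4f16, 0.48 ± 0.36 for Cyp4f17 and 1.05 ± 0.63 for Cyp4f18. Cyp4f18, a gene known from neutrophils, reached at most 1.49 CPM in any library.

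The regulators of the family and its electron donors were examined as a list of 20 genes, of which edgeR called 0 and 15 lay above 0 (median 0.11). DESeq2, and edgeR without the low-count filter, each called 1 of them lower, Ghr, where DESeq2 called 2.68% of all genes lower. Ppara itself, the receptor that drives the Cyp4a genes, was at 137, 226 and 85.5 CPM in vehicle and 153, 160 and 147 CPM in insulin, a log2 fold change of 0.04 ± 0.35 (edgeR adjusted p = 0.977). Por, which encodes the cytochrome P450 reductase, stood at 0.25 ± 0.49 (edgeR adjusted p = 0.903), with values from 189 CPM in vehicle replicate 2 to 867 CPM in vehicle replicate 3. The sign of both was unstable: Ppara was at −0.16 and Por at −0.05 after the GC offset, which also moved the list's median to −0.14.

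The 4 genes of this list with the smallest p were Ghr, Ppargc1a, Nr1i3 and Ppard. Ghr, the growth hormone receptor, did not overlap between the groups, which in that direction held for 6.04% of all genes. Its log2 fold change was −0.82 ± 0.38 (edgeR adjusted p = 0.852), and −0.27 without vehicle replicate 2. Ppargc1a, a coactivator of PPARα, was at −0.67 ± 0.43, Nr1i3, the receptor CAR, at 0.49 ± 0.41, and Ppard, a sister receptor of PPARα, at 0.59 ± 0.56.

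PPARα targets outside the Cyp4 family lay on both sides of 0. Of 24 listed genes 23 were tested, 12 of them below 0 (median −0.02). By the study's criteria 1 gene was called, Fgf21, a fasting hormone made by the liver, which rose from 5.08 ± 2.10 to 10.5 ± 2.36 CPM (log2 fold change 1.04 ± 0.38, edgeR adjusted p = 0.852) without overlap between the groups. Its call was lost without insulin replicate 3, at 0.86. Of all 13377 genes tested, 134 were called higher in insulin. Groups did not overlap in that direction for 2 of the 23 targets and for 836 of all genes.

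Fabp1, the liver fatty acid binding protein, was the next by p, at 1680 ± 404 CPM in vehicle and 2467 ± 263 CPM in insulin (0.55 ± 0.28, edgeR adjusted p = 0.852), with no overlap. Acaa1b, a peroxisomal thiolase, and Pex11a, a peroxisome division factor, both gave 0.51, with SEs of 0.32 and 0.36, and the GC offset turned Acaa1b to −0.13.

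Downstream of omega-hydroxylation, the route through dicarboxylic acids was covered by 23 genes, of which 22 were tested. Among the 22, 17 had a value below 0 (median −0.24) and 1 was called, where 1.86% of all genes were called lower. That gene was Nudt7, a peroxisomal hydrolase of coenzyme A, which fell from 580 ± 163 to 352 ± 84.7 CPM (−0.72 ± 0.30, edgeR adjusted p = 0.852), and was no longer called without vehicle replicate 2, at −0.47. Without that library 11 of 22 genes of the list were below 0.

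Aldh3a2 encodes an aldehyde dehydrogenase, which acts on the product of the Cyp4 reaction once that has been oxidized to an aldehyde. Its level was 568 ± 357 CPM in vehicle and 481 ± 46.5 CPM in insulin (−0.24 ± 0.45, edgeR adjusted p = 0.895), and its estimate was 0.35 without vehicle replicate 2. Abcd3, a peroxisomal importer of dicarboxylic acids, did not overlap between groups, at −0.68 ± 0.34 (edgeR adjusted p = 0.852). A lack of overlap in that direction held for 2 of the 22 tested genes of the list and for 6.04% of all genes. Crot, which makes carnitine esters in peroxisomes, was at −0.89 ± 0.46. Without vehicle replicate 2, Abcd3 was at −0.24 and Crot at −0.15.

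A list of 10 male-biased liver genes was included because the Cyp4a12 genes belong to this group. All 10 were tested and had values below 0 (median −0.69), and 2 were called, where 1.86% of all genes were called lower: Mup20, a urinary pheromone protein that fell from 5762 ± 1986 to 2832 ± 801 CPM (−1.02 ± 0.37, edgeR adjusted p = 0.852), and Nudt7, which is also in the list above. Slco1a1, an organic anion transporter, was at −0.87 ± 0.46 and Ugt2b38, a glucuronosyltransferase, at −0.66 ± 0.38. Without vehicle replicate 2, 8 of 10 were below 0, the median was −0.19 and 0 were called, with Mup20 at −0.73, Slco1a1 at −0.088 and Ugt2b38 at −0.14.

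**Figure D5:**
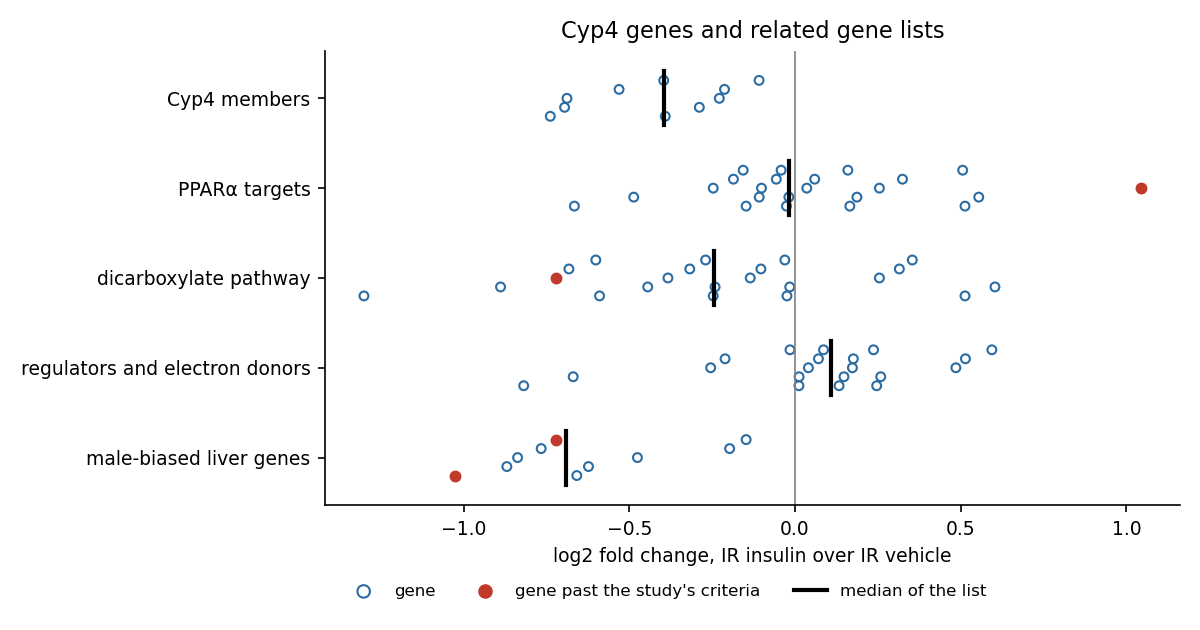
Log2 fold changes, IR insulin over IR vehicle, of the Cyp4 members and of the genes in 4 related lists, with filled symbols for genes past the study's criteria and a vertical bar at each list's median. The Cyp4 members and the male-biased genes lie below 0, while the PPARα targets lie on both sides of 0.

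Genes whose pattern over the 6 libraries was most like that of the main members were found by the root mean square (RMS) difference of mean-centred log2 CPM, among 10650 genes. For Cyp4f14 the closest were Sqor and Uroc1, at 0.031 and 0.042, where the median candidate was at 0.503. Cyp4a10 was followed most closely by Myo9a (0.094), Ahnak (0.109) and Ctdspl2 (0.146), against a median of 0.601, and Cyp4a12a by Gm26809 (0.148), Cd44 (0.154) and Tbc1d30 (0.186), against 0.783. The nearest to Cyp4a14 were Il16 (0.165), Des (0.169) and Col3a1 (0.183), against 0.600. With 6 libraries, such likeness is a description of these samples.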

How the data were processed

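Livers of 6 IR mice were compared, 3 per group, with groups and replicate numbers taken from the sample labels, which name no batch. The authors deposited whole-number read counts per gene, neither normalized nor pooled, made from NEBNext Ultra libraries sequenced on Illumina HiSeq and aligned to mm10, with Bowtie2 2.2.3 named in the submitters' processing notes. The counting program, annotation, read length and use of strand were not given in the sources used here, so counts of overlapping genes and of near-identical copies are uncertain.

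Counts were normalized by TMM and tested with edgeR 4.0.16 in R 4.3.3 (glmQLFit and glmQLFTest) over the 13377 genes that passed filterByExpr (minimum count 10, minimum total 15). Adjusted p-values are Benjamini-Hochberg over all of these, and every p comes from this fit unless another tool is named. The same fit was also run on counts simulated with known fold changes, using the means, library sizes and dispersions of the main fit. CPM uses TMM-scaled library sizes, and SEs are the absolute log2 fold change over the square root of F. Totals of 18449986 to 21827619 counts limit low genes, and counting intervals cover counting error only. Positions, transcript lengths, GC content and sequences came from GENCODE M21 (GRCm38), where 54495 of 54532 gene identifiers were found. Per-kilobase levels use the annotated transcript length. Alternatives were DESeq2 1.42.0, RLE size factors, no low-count filter, a replicate block, a loess offset for GC content (span 0.5), block and offset together, and each library left out.

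Members and gene lists were chosen with earlier results of these data known. Genes named are the 10 members, other Cyp4 genes that passed the filter, the 4 genes of each list with the smallest p, Ppara, Por, Aldh3a2 and Fgf21, and the 3 genes nearest in pattern to Cyp4a10, Cyp4a14, Cyp4a12a and Cyp4f14 (mean of at least 50 normalized counts). Cyp46a1, which the name rule for Cyp4 would take in, belongs to another family and was left out. A few genes that these rules take in are not reported here.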

Additional observations from a re-analysis of the deposited data

How the results depend on the processing

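Over 12 alternatives the 10 members gave 120 log2 fold changes: 101 kept their sign and their side of the study's criteria, 7 kept the sign and newly met the criteria, and 12 changed sign. No setting gave a gene at an adjusted p below 0.05. Same-numbered libraries of the 2 groups did not vary together (r of −0.039, 0.069 and 0.017), so the replicate block only shares a number, and not every library correlated best with its own number; the block moved the count over all genes from 383 (134 higher, 249 lower) to 321 (203 higher, 118 lower) and left 0 members called. With the GC offset the split was 93 higher and 379 lower.

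Without the low-count filter, calls numbered 742 over all genes, 3 in the dicarboxylate list and 1 among the regulators. DESeq2 called 1 member, 2 PPARα targets and 1 regulator. It called 2.68% of all genes lower, a share that leaves out genes called higher and so is no background for PPARα targets called higher. With the replicate block, 0 dicarboxylate and 0 male-biased genes were called. With the GC offset the counts were 1 member, 2 PPARα targets, 2 dicarboxylate genes and 1 male-biased gene. There 2.83% of all genes were called lower, again leaving out those called higher. Block and offset together gave 1 member and 0 male-biased genes, with 1.51% of all genes called lower. Leaving out 1 library at a time gave 0 to 3 members, 0 to 1 of the other Cyp4 genes and 0 to 4 PPARα targets. The same fits gave 0 to 5 dicarboxylate genes, 0 to 2 regulators and 0 to 5 male-biased genes. Calls over all genes ran from 99 to 1349, the highest without vehicle replicate 1 and the lowest without insulin replicate 1. Without vehicle replicate 1, 5.33% of all genes were called lower, so list counts are not comparable between settings.

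Signs changed as follows. With the block, Cyp4a12a was at 0.19, the Cyp4a12 sum at 0.042 and Cyp4b1 at 0.12. With the GC offset, Cyp4a12a was at 0.033, Acaa1b at −0.13, Por at −0.051 and Ppara at −0.16. With block and offset, Cyp4a14 was at 0.021, Cyp4a12a at 0.25 and Por at −0.011. Leaving out 1 library at a time gave log2 fold changes from −0.67 to 0.27 for Cyp4a10, −1.10 to 0.44 for Cyp4a12b, −0.63 to 0.014 for Cyp4a32, −0.68 to 0.25 for the Cyp4a10 sum, −0.70 to 0.60 for the Cyp4a12 sum, −0.61 to 0.35 for Aldh3a2 and −0.15 to 0.82 for Por, where only the fit without vehicle replicate 2 turned the sign. Only the fit without vehicle replicate 3 turned it for Cyp4a14 (−0.55 to 0.013), Cyp4f13 (−0.40 to 0.16), Cyp4f15 (−0.45 to 0.10) and Cyp4f16 (−0.61 to 0.14). It turned in 2 such fits for Cyp4a12a (−0.51 to 0.67, without vehicle replicate 2 or insulin replicate 2), Cyp4b1 (−0.42 to 0.56, without vehicle replicate 3 or insulin replicate 2) and Ppara (−0.24 to 0.47, without vehicle replicate 1 or 3). The cause was not tested. With 3 mice per group and SEs of 0.27 to 0.64 for the members, modest differences were not detectable.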
